A study of Danio rerio with 2 samples.

Results

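The genes *noto*, *foxa*, *foxa2*, *foxd5* and *admp* are described here in zebrafish tailbud cells, as 5 of the 27771 genes in the count matrices. They were chosen by symbol, and each symbol named 1 gene: *noto* (ENSDARG00000021201), *foxa* (ENSDARG00000087094), *foxa2* (ENSDARG00000003411), *foxd5* (ENSDARG00000042485) and *admp* (ENSDARG00000025372). All 5 had UMIs (unique molecular identifiers, each standing for 1 captured transcript) in both libraries. Dissected tailbuds at 16 hpf were compared between AB wild type and embryos of the *stag2b* NZ207 line, a homozygous viable line with a mutation in 1 of the zebrafish Stag subunits of cohesin. Each genotype was 1 droplet library made from 1 pool of tailbuds, so genotype, pool and library cannot be told apart, and no p-values are given. Intervals are exact 95% intervals that cover counting error only.

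The tailbud extends the body axis from progenitors that give rise to notochord, floor plate and hypochord along the midline, and to somites and spinal cord beside and above it. *noto* encodes a homeodomain factor that keeps midline mesoderm in the notochord fate; zebrafish without it form muscle in its place. *foxa2* and *foxa* encode forkhead factors of midline tissues, with *foxa2* best known in floor plate and endoderm. *foxd5* encodes a forkhead factor of the neural plate and tailbud, whose *Xenopus* relative holds neural cells in an immature state. *admp* encodes a Bmp-family ligand first made in the dorsal organizer.

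After filtering, 17580 wild-type and 23492 *stag2b* mutant cells remained, with medians of 15361.5 and 13289.5 UMIs. The libraries shared 125 barcodes, 0.668% of the wild-type and 0.474% of the mutant barcodes. Cells were placed in classes by raw UMIs of other genes, and none of the 5 genes was used. Early axial cells had at least 2 UMIs of *tbxta* and of *shha* and fewer than 2 notochord matrix markers (88 wild-type and 77 mutant cells). Notochord matrix cells had *tbxta* and at least 2 of those markers, among them collagen and lysyl oxidase genes (412 and 375 cells). Floor plate cells had a hedgehog ligand, a SoxB gene and a floor plate marker, and fewer than 2 UMIs of *tbxta* (71 and 59 cells). *shhb* counted both as a ligand and as a floor plate marker, so it could meet both conditions alone. These 3 classes and 1 wild-type cell of a Kupffer's vesicle gate made up 572 axial cells in wild type, 3.25% of the cells kept (2.996 to 3.53%), and 511 in the mutant, 2.18% (1.99 to 2.37%). *col2a1a* and *loxl5b* were among the genes that led notochord matrix cells, and *shhb* and *ntn1b* among those of floor plate cells. *loxl5b*, *shhb* and *ntn1b* were markers of these gates, so their place in the lists is no separate evidence of identity. *ccn2a*, which the study on these libraries used as a hypochord marker, was in the floor plate list of both libraries. The wild-type floor plate list also held *chl1a*, *zgc:112332*, *igf2b* and *pappaa*, which also led the 12 wild-type cells without neural crest UMIs of a hypochord gate. That gate (41 and 115 cells) was left out of the axial total because neural crest genes led it in part. *dand5*, a Nodal antagonist of Kupffer's vesicle, led the wild-type early axial cells, whose list shared *capsla* and *cdaa* with the cell of the Kupffer's vesicle gate. *stag2b* itself stood at 105 CPM (UMIs of the gene per 1000000 UMIs of the cells) in wild-type and 55.5 CPM in mutant axial cells.

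*noto* was the most abundant of the 5 genes in the axis. In wild type its level was 1291 CPM (1232 to 1353) in early axial and 1252 CPM (1226 to 1280) in notochord matrix cells, and these neighbours in the order overlapped. The mutant values were 833 CPM (781 to 888) and 586 CPM (566 to 606), which did not overlap each other. Floor plate cells held 89.4 and 60.8 CPM. Early axial cells had a median of 16 *noto* UMIs in wild type and 10 in the mutant, and the highest cells had 104 and 38. In notochord matrix cells the medians were 14 and 7 and the highest cells had 94 and 41.

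*foxa2* was high in all 3 axial classes. Its wild-type levels were 572 CPM (530 to 617) in floor plate, 504 CPM (487 to 521) in notochord matrix and 419 CPM (385 to 455) in early axial cells. In the mutant these were 507, 418 and 432 CPM, and floor plate overlapped early axial, which overlapped notochord matrix. *foxa* had another order, with 282 CPM (269 to 295) in notochord matrix, 192 CPM (167 to 218) in floor plate and 49.9 CPM (38.7 to 63.3) in early axial cells of wild type. The mutant kept that order with 452, 246 and 79.1 CPM. A notochord matrix cell had a median of 3 *foxa* and 7 *foxa2* UMIs in wild type and of 5 and 6 in the mutant.

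*admp* was highest in early axial cells, where wild-type cells held 483 CPM (447 to 521) and mutant cells 482 CPM (443 to 525). It was detected in 62.5% (51.5 to 72.6%) and 79.2% (68.5 to 87.6%) of these cells, with medians of 3 and 6 UMIs. Notochord matrix cells held 226 and 181 CPM and floor plate cells 45.6 and 73.5 CPM. Of all *admp* UMIs, 67.7% in wild type and 62.0% in the mutant lay in axial cells. The corresponding shares were 69.6% and 60.0% for *foxa2*, 59.1% and 51.9% for *foxa*, and 36.6% and 29.5% for *noto*. For *foxd5* they were only 4.91% and 3.82%, so that most transcripts of this gene were outside the axial classes. All these shares are of the UMIs of all cells kept, including the hypochord gate and cells placed in no class. Of *foxa* UMIs, cells with markers of several lineages held 12.5% and 16.2%. Cells that passed no gate held 2.85% and 4.36%, and the hypochord gate 1.47% and 4.81%.

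**Figure D1:**
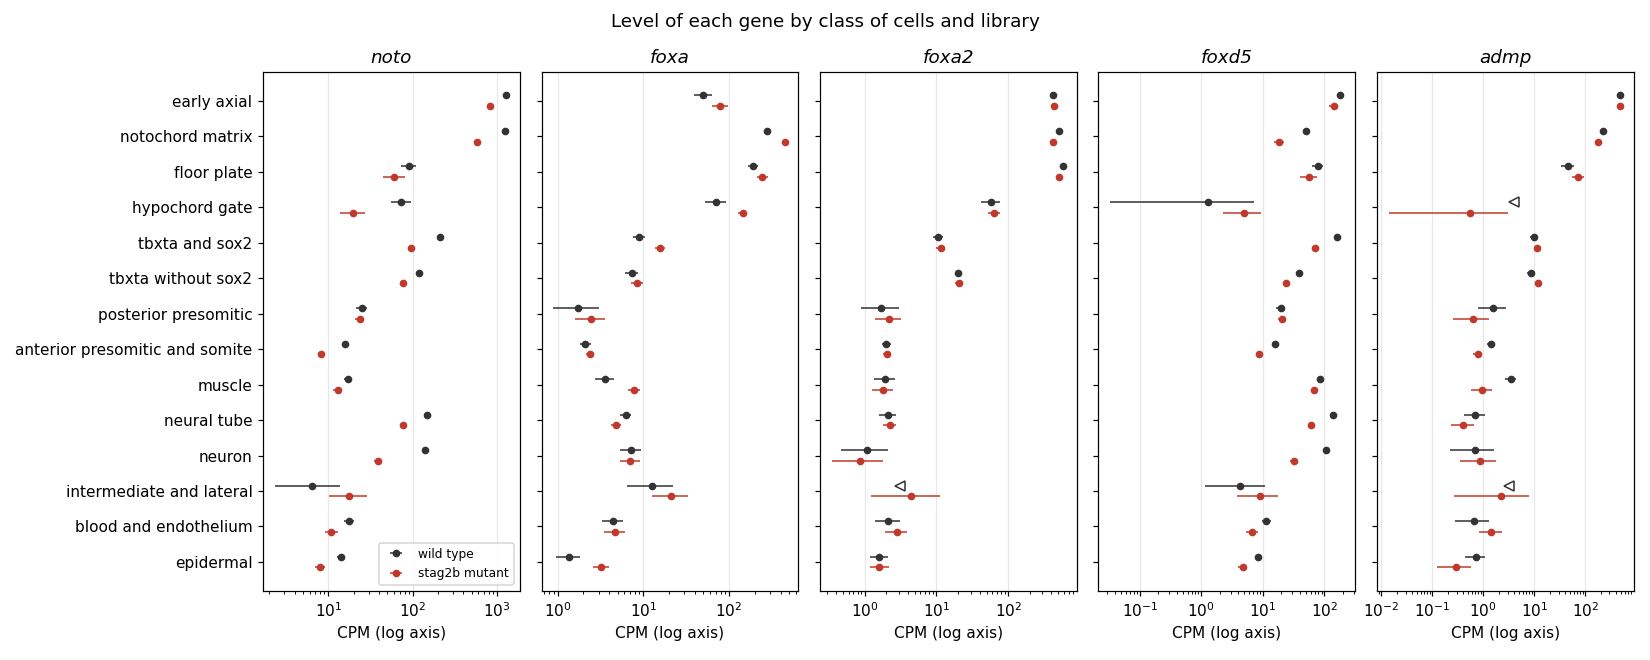
Level of each gene (CPM, log axis) in each class of cells, with wild type in black and *stag2b* mutant in red; lines are exact Poisson 95% intervals and open triangles mark a class with no UMI, drawn at the level of 3 UMIs. *foxa2* and *admp* stand highest in the axial classes at the top, while *foxd5* is also high in the *tbxta* and *sox2* class (158 CPM in wild type) and in neural tube (138 CPM).

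Outside the axial classes, *noto* and *foxd5* were highest in the same 3 classes in the wild-type library. *tbxta* and *sox2* together mark neuromesodermal progenitors and, in the study on these libraries, also midline progenitor cells, which were not separated here. Cells with both, in no axial class (898 wild-type and 905 mutant cells), held 210.2 CPM of *noto* in the wild-type library against 94.999 CPM in the mutant. Their *foxd5* level was 158 and 70.5 CPM. Neural tube cells had 2 or more neural markers and fewer than 2 UMIs each of *tbxta*, *shha* and *shhb*. They held 147 and 76.5 CPM of *noto* and 138 and 60.5 CPM of *foxd5*. Neurons were cells with at least 2 neuronal markers, among them *elavl3* and *neurog1*, with no limit on *tbxta* or *sox2*. They held 139.9 and 39.1 CPM of *noto* and 105 and 31.7 CPM of *foxd5*.

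More cells with at least 2 *noto* UMIs were in the neural tube class (717 in wild type and 634 in the mutant) than in the axis (401 and 329), although the axis held more *noto* UMIs in both libraries. Blood and endothelial cells, taken to lack all 5 genes, served as the background, though they were not the lowest class for every gene. In them *noto* was at 17.5 and 10.8 CPM and *foxd5* at 11.4 and 6.69 CPM. After each cell was thinned to 5000 UMIs, *noto* was detected in 33.1% of wild-type and 21.7% of mutant neural tube cells, against 4.69% and 3.55% of blood and endothelial cells. Median depths were 12379 and 12606 UMIs in neural tube and 15243 and 14799 UMIs in blood and endothelium. Without thinning the *noto* shares were 45.4% and 32.8% in neural tube, and 6.38% and 6.42% in blood and endothelium.

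*foxa2* was at the background level in neural tube. It stood there at 2.10 and 2.23 CPM, beside 2.11 and 2.79 CPM in blood and endothelium. *admp* was likewise at 0.690 and 0.401 CPM in neural tube and at 0.650 and 1.44 CPM in the background. *foxa* was at 6.21 and 4.82 CPM there, and its background of 4.38 and 4.66 CPM had overlapping intervals in both libraries. That background is not the lowest level of *foxa*. Wild-type epidermal cells held 1.34 CPM (0.951 to 1.83) and anterior presomitic and somite cells 2.10 CPM (1.81 to 2.43). The mutant levels were 3.22 CPM (2.59 to 3.96) and 2.39 CPM (2.11 to 2.68). The neural tube intervals of *foxa*, 5.34 to 7.19 CPM in wild type and 4.16 to 5.55 CPM in the mutant, lay above both classes.

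*foxd5* was also found in muscle. Wild-type cells held 83.2 CPM (79.1 to 87.4) and mutant cells 68.5 CPM (65.0 to 72.1), above the 15.9 and 8.62 CPM of anterior presomitic and somite cells. The other 4 genes stood at 17.0 CPM or less in muscle.

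The remaining classes follow. Cells with *tbxta* but no *sox2* UMI (1629 wild-type and 1548 mutant cells) had 119 and 77.7 CPM of *noto*, 39.0 and 23.4 CPM of *foxd5*, 20.3 and 20.5 CPM of *foxa2*, 8.52 and 12.0 CPM of *admp* and 7.30 and 8.49 CPM of *foxa*. Posterior presomitic cells had 25.0 and 23.6 CPM of *noto* and 19.6 and 20.4 CPM of *foxd5*, and 2.44 CPM or less of the other 3 genes. Epidermal cells had 14.0 and 8.02 CPM of *noto* and 8.40 and 4.69 CPM of *foxd5*, near the levels in blood and endothelium. Only 59 and 68 cells were intermediate and lateral mesoderm, with 6 and 16 UMIs of *noto* and 12 and 19 of *foxa*.

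The axial cells were next ordered by how many of the notochord matrix markers they carried, from 0 or 1 (the early axial class, which also required *shha*) to 6 or more. This order stands in for how far a cell has begun to make sheath matrix; it is not a measured time. The 5 genes took different courses along it. *admp* was in wild type at 483 CPM with 0 or 1 marker and 457 CPM with 2 or 3, then at 73.1 CPM with 4 or 5 and at 3.42 CPM (1.26 to 7.45) with 6 or more. *foxd5* was low from an earlier step, with 179, 106, 6.22 and 2.28 CPM.

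*noto* stayed high up to 4 or 5 markers. Its wild-type levels were 1291, 1487 and 1844 CPM over these 3 steps, and 203 CPM (182 to 225) at 6 or more markers. *foxa2* was at 419, 573, 602 and 278 CPM, below *noto* up to 4 or 5 markers and above it at 6 or more. *foxa* was higher at every further step, with 49.9, 125, 313 and 513 CPM.

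In the mutant, *noto* was at 833, 884, 810.0 and 62.6 CPM and *foxa* at 79.1, 198, 435 and 761 CPM. *noto* was thus lower and *foxa* higher than in wild type at each of the 4 steps. The log2 ratio of mutant over wild type for *noto* was -0.63 (-0.75 to -0.52), -0.75 (-0.83 to -0.67), -1.19 (-1.28 to -1.09) and -1.69 (-2.003 to -1.39) from the first to the last step. For *foxa* it was 0.66, 0.66, 0.47 and 0.57, with all 4 intervals above 0. *admp* was at 482, 408, 73.8 and 4.10 CPM in the mutant. Its ratio lay below 0 at 2 or 3 markers (-0.16, -0.29 to -0.04), the step with most of its UMIs, and spanned 0 at the others.

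Depth was higher at the later steps, from a median of 14408.5 UMIs per cell at 0 or 1 marker to 22717 at 6 or more in wild type, and from 14018 to 20280.5 in the mutant. With the steps counted on cells thinned to 5000 UMIs, an alternative added after the data were seen, *noto* was at 1287, 1707, 1454 and 169 CPM in wild type and at 888, 1053, 711 and 41.0 CPM in the mutant. *foxa* was at 61.7, 134, 314 and 546 CPM and at 105, 201, 511 and 805 CPM. Matrix markers themselves also differed between the libraries: *loxl5b* stood at 457 and 822 CPM in the axial cells and *cmn* at 202 and 282 CPM, while *col8a1a* stood at 278 and 232 CPM. The part of these markers in the comparison by step was not tested.

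**Figure D2:**
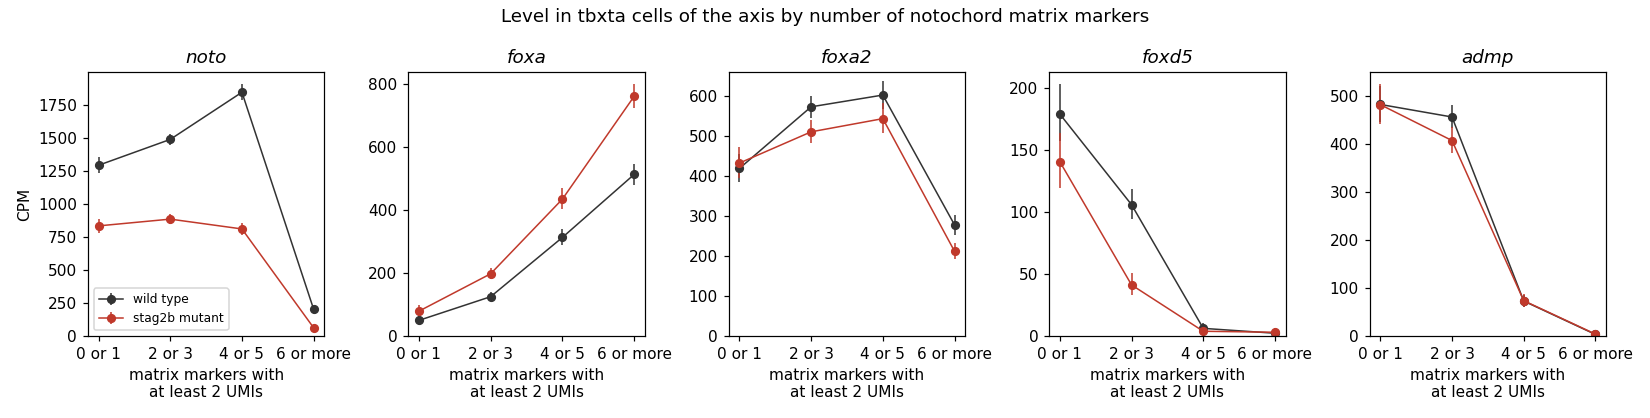
Level of each gene (CPM, linear axis from 0) in *tbxta*-positive axial cells by the number of notochord matrix markers with at least 2 UMIs; points are sums over the cells of 1 library with exact Poisson 95% intervals, wild type in black and *stag2b* mutant in red. *foxd5* is near 0 from 4 or 5 markers on and *admp* at 6 or more, *noto* drops at 6 or more, and *foxa* is highest there (513 and 761 CPM).

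Co-detection in single cells was counted at a fixed depth of 5000 UMIs. In early axial cells, 4 or 5 of the 5 genes were detected in 24 and 4 of 82 wild-type cells and in 26 and 10 of 77 mutant cells. Notochord matrix cells most often had 3 genes, in 39.8% of cells in both libraries. Floor plate cells most often had 2, in 47.9% and 53.4%. In blood and endothelium none was detected in 89.9% and 91.8% of cells.

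In early axial and notochord matrix cells *admp* was nearly always seen together with *noto*. In wild-type notochord matrix cells, 117 of 119 *admp* cells also had *noto* (98.3%), and in early axial cells 49 of 49 did. The mutant counts were 95 of 98 and 53 of 55. Both were detected in 31.0% of wild-type (26.4 to 36.0%) and 27.6% of mutant notochord matrix cells (23.0 to 32.7%), against products of 23.7% and 18.7%. Early axial cells had both in 59.8% (48.3 to 70.4%) and 68.8% (57.3 to 78.9%). The products there, 48.8% and 61.2%, lay within these intervals. In floor plate cells 3 of 6 *admp* cells had *noto* in each library, and in muscle 3 of 11 and 3 of 8. *admp* cells of the notochord matrix class also had *foxa2* in 115 of 119 and 93 of 98 cells. *foxa2* and *admp* were together in 30.50% of wild-type cells (25.89 to 35.42%), an interval that holds the product of 25.96%. In mutant cells they were together in 27.0% (22.4 to 32.1%) against 21.5%.

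*foxd5* and *admp* overlapped more than their single shares would give. Both were detected in 10.9% of wild-type notochord matrix cells (7.92 to 14.5%), where the product of the single shares was 4.60%, and in 4.94% of mutant cells (2.90 to 7.79%), where it was 1.99%. With *foxa*, both genes overlapped less than their shares would give. *foxa* and *admp* were together in 11.4% of wild-type cells (8.38 to 15.1%) against a product of 18.7%, and in 14.2% of mutant cells (10.7 to 18.4%) against 21.6%. *foxa* and *foxd5* were together in 3.71% (2.04 to 6.15%) against 8.63%, and in 2.62% (1.203 to 4.91%) against 5.29%. Without thinning these 2 shortfalls were smaller. *foxa* and *foxd5* were then together in 16.7% and 12.0% of cells against 18.4% and 14.3%, too close to claim a shortfall for this pair at full depth.

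In early axial cells the pair *foxd5* and *admp* was near its product, at 25.6% against 24.8% in wild type and 37.7% against 36.2% in the mutant. Among neural tube cells the pair was *noto* and *foxd5*. Both were detected in 18.9% of wild-type cells (17.2 to 20.6%) against a product of 12.0%, and in 8.47% of mutant cells (7.49 to 9.54%) against 4.49%. The cells with *tbxta* and *sox2* had both in 20.9% (18.3 to 23.8%) against 16.7%, and in 9.51% (7.67 to 11.6%) against 5.75%. The few *admp* cells of that class mostly had *foxa2* as well, 9 of 15 in wild type and 11 of 17 in the mutant.

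**Figure D3:**
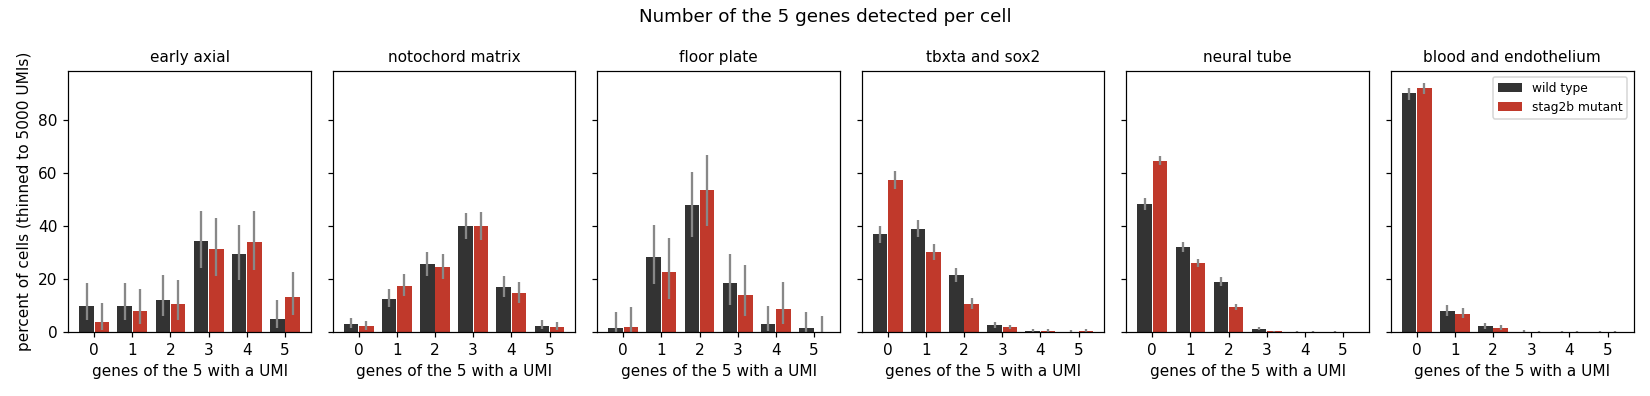
Percent of cells in which 0 to 5 of the 5 genes had a UMI after thinning to 5000 UMIs, in 6 classes; bars are 1 library each, wild type in black and *stag2b* mutant in red, with exact Clopper-Pearson 95% intervals. Early axial and notochord matrix cells peak at 3 or 4 genes, floor plate cells at 2, and neural tube cells at 0 (48.1% and 64.5%).

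The libraries were then compared class by class. *noto* was lower in the mutant in 12 of the 13 classes that held at least 50 of its UMIs, with the interval of the ratio below 0, and posterior presomitic cells were the exception (-0.09, -0.37 to 0.20). The 12 include blood and endothelium itself, and muscle, anterior presomitic and somite, and epidermal cells, whose levels of 17.0, 15.8 and 14.0 CPM in wild type were no higher than that background. Another of the 12 is the hypochord gate, at -1.90 (-2.54 to -1.27) with 56 and 36 UMIs. Its cells without neural crest UMIs held 0 and 4 of these. Over all axial cells *noto* was at 1109.6 CPM against 569 CPM in the mutant, a log2 ratio of -0.96 (-1.02 to -0.91). The ratio was -1.10 (-1.15 to -1.04) in notochord matrix cells, -1.15 (-1.24 to -1.06) in cells with *tbxta* and *sox2*, -0.94 (-1.01 to -0.87) in neural tube cells and -1.84 (-2.03 to -1.66) in neurons. In blood and endothelium, the background, it was -0.69 (-1.02 to -0.37). The study on these libraries had reported lower *noto* in mutant notochord cells, so that direction is not independent evidence.

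*foxd5* was lower in 10 of 12 such classes, and its interval spanned 0 in floor plate and posterior presomitic cells. The 10 include blood and endothelium itself, at 11.4 and 6.69 CPM, and epidermal cells, whose 8.40 and 4.69 CPM lie below that background. The ratio of *foxd5* was -1.16 (-1.27 to -1.06) in cells with *tbxta* and *sox2*, -1.19 (-1.26 to -1.11) in neural tube cells and -1.73 (-1.94 to -1.52) in neurons, beside -0.28 (-0.39 to -0.18) in muscle and -0.35 (-0.65 to -0.06) in early axial cells. In blood and endothelium it was -0.78 (-1.19 to -0.37).

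*foxa* stood apart in its direction. It was higher in the mutant in 7 of 12 classes, lower in 1 (neural tube) and spanned 0 in 4. The 7 include epidermal cells, whose 1.34 and 3.22 CPM lie below the level in blood and endothelium. Another is the hypochord gate, where the ratio was 0.31 (-0.11 to 0.77) in cells without neural crest UMIs. Muscle is also among the 7, at 3.53 and 7.73 CPM with a ratio of 1.13 (0.71 to 1.56). Blood and endothelium stood at 4.38 and 4.66 CPM. In neural tube the ratio of *foxa* was -0.37 (-0.67 to -0.06). The intervals of its levels there overlapped those of blood and endothelium but lay above those of epidermal cells. The log2 ratio was 0.67 (0.59 to 0.75) over all axial cells, with 236 and 376 CPM, and 0.80 (0.50 to 1.11) in cells with *tbxta* and *sox2*, where its levels of 8.92 and 15.6 CPM were low. In blood and endothelium the interval spanned 0, at 0.09 (-0.48 to 0.66).

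Over all axial cells *foxa2* and *admp* differed less. The log2 ratio was -0.22 (-0.29 to -0.16) for *foxa2*, with 500.2 and 429 CPM, and -0.16 (-0.26 to -0.07) for *admp*, with 241 and 215 CPM. For *foxa2* the interval lay below 0 in 1 class, notochord matrix (-0.27, -0.35 to -0.19), and spanned 0 in the other 10 classes with at least 50 UMIs. *admp* was lower in 3 of 7 such classes: notochord matrix (-0.32, -0.44 to -0.21), anterior presomitic and somite (-0.83, -1.24 to -0.43) and muscle (-1.86, -2.66 to -1.12), where 66 and 20 UMIs were counted. In anterior presomitic and somite cells *admp* was at only 1.396 and 0.784 CPM. The intervals of these levels overlapped those of the background, blood and endothelium (0.650 and 1.44 CPM), in both libraries. *admp* was higher in cells with *tbxta* but no *sox2* (0.50, 0.20 to 0.80) and in floor plate cells (0.69, 0.13 to 1.25), where 54 and 58 UMIs were counted and the alternatives ranged from 0.10 (markers from 3 UMIs) to 1.398 (from 1 UMI).

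Against all genes with at least 50 CPM in 1 library of the class, few differences were as large as 2-fold. In all axial cells 1.93% of genes were at least 2-fold lower in the mutant and 1.35% at least 2-fold higher, and 0 of the 5 genes were, with *noto* just short of it at 1.95-fold lower. Early axial cells had 2.49% of genes lower and 1.76% higher, and again 0 of 5. In notochord matrix cells 1.76% of genes were lower, and 1 of 4 was (*noto*). *foxd5* was not counted there since its higher level was 49.8 CPM, and its log2 ratio was -1.45 (-1.78 to -1.13), and -0.52 with markers from 1 UMI. In cells with *tbxta* and *sox2* 1.86% of genes were lower, and 2 of 2 were (*noto* and *foxd5*). In neural tube cells 1.86% of genes were lower, and 1 of 2 was (*foxd5*). The median gene had a log2 ratio of 0.06 in all axial and 0.08 in neural tube cells.

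**Figure D4:**
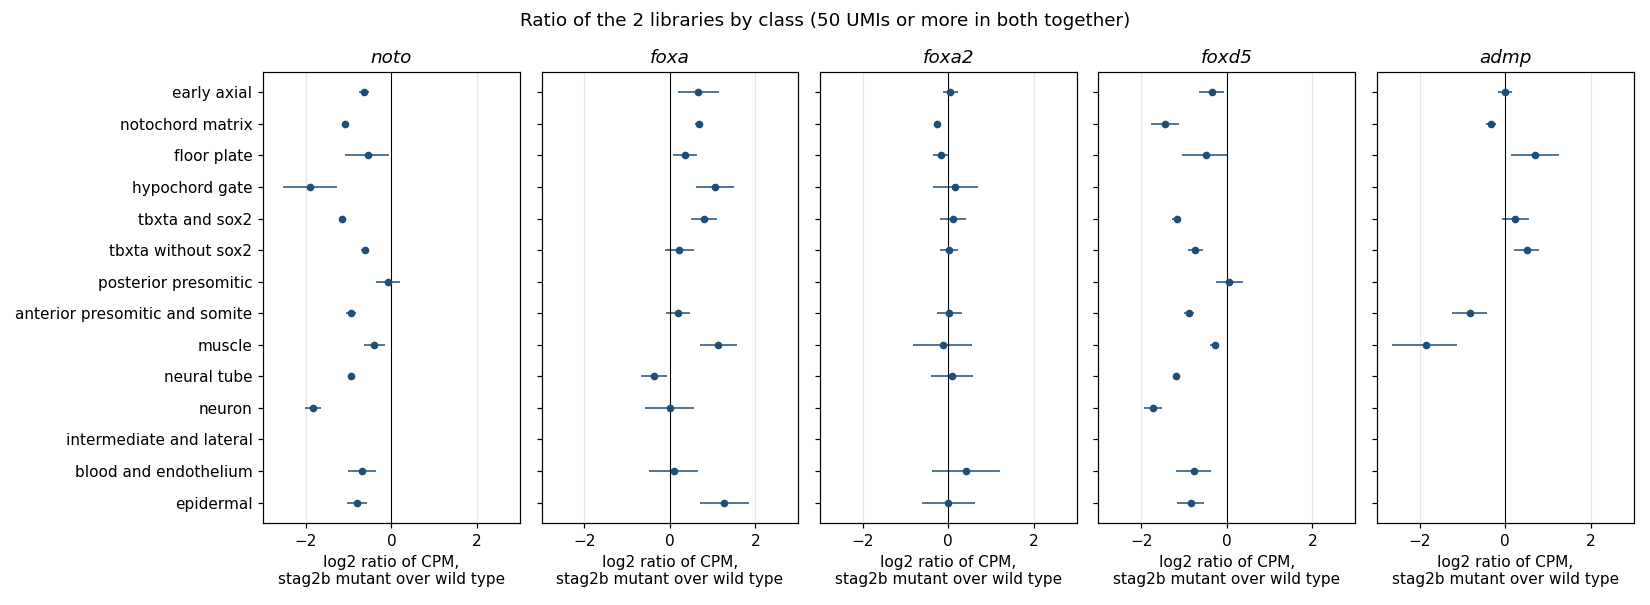
Log2 ratio of CPM, *stag2b* mutant over wild type, for each gene in the classes with at least 50 of its UMIs in both libraries together; points are 1 library against 1 library and lines are exact conditional binomial 95% intervals for counting error. *noto* and *foxd5* lie mostly left of 0 and *foxa* mostly right of it.

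Neural tube cells were split further by other genes, chosen after their values had been seen; several are themselves markers of the gate. *noto* followed *zic2b*, a zinc-finger gene of dorsal and posterior neural tissue. In wild type it was at 185 CPM in 1400 cells with at least 2 *zic2b* UMIs and at 33.8 CPM in 498 cells with none, and in the mutant at 102 and 16.6 CPM. It was highest in the few neural tube cells with *wnt8a* (ENSDARG00000052910), a Wnt ligand of the tailbud, at 477 CPM (438 to 518) in 74 wild-type cells and 276 CPM (235 to 321) in 38 mutant cells.

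*foxd5* followed *olig2*, which marks motor neuron progenitors. It was at 257 CPM (244 to 270) in wild-type cells with *olig2* and at 100.1 CPM (95.9 to 104) in those without, and in the mutant at 140.2 and 48.0 CPM. *foxa* was also higher with *olig2*, at 16.8 and 15.1 CPM against 2.82 and 3.39 CPM without it. Cells with the dorsal gene *pax3a* held less *foxd5* than cells without it, with 79.7 CPM against 189 CPM in wild type and 34.0 against 92.9 CPM in the mutant. In all 8 groups formed by *zic2b*, *wnt8a*, *olig2* and *pax3a* both *noto* and *foxd5* were lower in the mutant. The cells with *pax3a* were 721 of 2225 wild-type and 1326 of 3139 mutant neural tube cells.

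Cells with *tbxta* and *sox2* showed a sharper split for *noto* by *zic2b* than neural tube cells in wild type, but not in the mutant. With *zic2b*, 412 wild-type cells held 367 CPM (354 to 381) and 343 mutant cells 155 CPM (145 to 165). Without *zic2b* the levels were 44.0 CPM (39.1 to 49.5) in 366 and 43.7 CPM (38.8 to 49.0) in 423 cells. The log2 ratios were -1.25 (-1.35 to -1.14) and -0.01 (-0.25 to 0.23). *foxd5* was lower in the mutant on both sides of this split, with ratios of -1.29 (-1.44 to -1.14) and -1.01 (-1.19 to -0.83).

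In muscle, *foxd5* was higher in cells with the slow muscle genes *smyhc1*, a myosin heavy chain, and *prdm1a*, a factor of slow fibre fate. Wild-type cells with *smyhc1* held 177 CPM (162 to 194) and mutant cells 141 CPM (130 to 152), and cells without it 65.3 and 45.2 CPM. Cells with *prdm1a* held 136 and 109 CPM, and those without it 32.2 and 24.4 CPM.

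**Figure D5:**
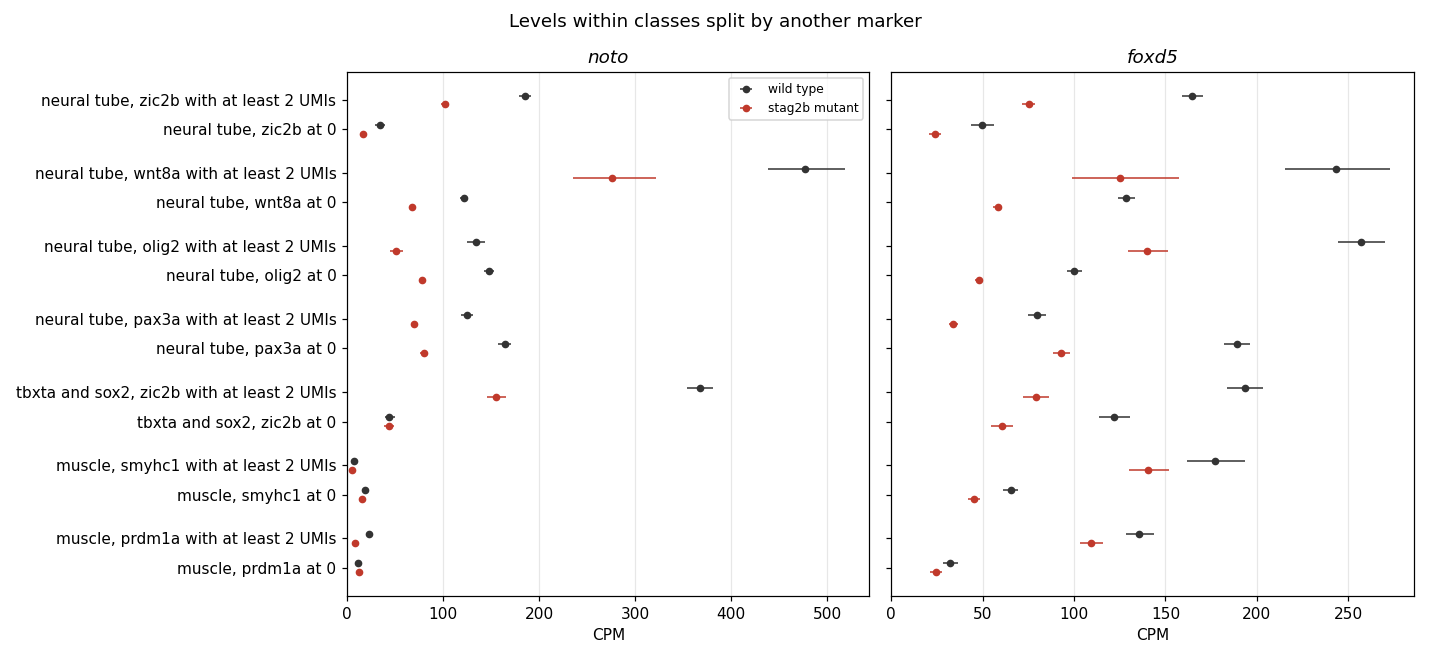
Levels of *noto* and *foxd5* (CPM, linear axis from 0) in neural tube cells, cells with *tbxta* and *sox2*, and muscle cells, split by whether another gene had at least 2 UMIs or none; wild type in black, *stag2b* mutant in red, with exact Poisson 95% intervals. *noto* is highest in neural tube cells with *wnt8a* (477 CPM in wild type) and *foxd5* in those with *olig2* (257 CPM).

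Genes around the 5 were read from fixed lists, counting those with at least 50 CPM in 1 library. Among all genes counted in this way, 1.93% were at least 2-fold lower and 1.35% higher in all axial cells. The shares in early axial cells were 2.49% and 1.76%. Of 9 forkhead relatives, 3 reached that level in all axial cells and 0 differed 2-fold: *foxa1* at 76.1 and 67.0 CPM, *foxa3* at 101 and 133 CPM and *foxp4* at 109.8 and 107 CPM. In early axial cells 1 of 3 was at least 2-fold lower, *foxd3*, a neural crest factor also made in the midline, at 158 and 52.7 CPM. Of 20 axial genes, 19 matched a symbol and 15 were counted, with a median log2 ratio of -0.15 beside 0.06 for all genes, and 1 was at least 2-fold lower: *dand5*, at 205 and 37.5 CPM. *tbxta* was at 1019 and 920.1 CPM and *shha* at 397 and 336 CPM. Many genes of this list, *tbxta*, *shha* and *dand5* included, were markers of the axial gates. The cells were therefore chosen in part on these levels, unlike for most other genes.

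Several Bmp genes were lower in mutant early axial cells, where *admp* was at 483 and 482 CPM with medians of 3 and 6 UMIs per cell. Of 29 ligands, antagonists, receptors and targets 12 were counted there, and 6 of these were at least 2-fold lower and 0 higher. Over all genes of the class 2.49% were lower and 1.76% higher. The median of the 12 was -1.002 beside 0.04 for all genes. The 6 were *bmp2a*, *id3*, *vox*, *vent*, *ved* and *eve1*, of which the ligand gene *bmp2a* was at 63.1 and 14.1 CPM, the homeobox repressor *vox* at 252 and 65.9 CPM and the Bmp target *id3* at 423 and 151 CPM. *vox*, *eve1* and *id3* had been singled out by the study on these libraries, so their direction is not independent evidence. With the 50 CPM minimum dropped, 23 of the 29 were measured in this class, with a median of -0.70. Of these 8 were at least 2-fold lower and 1 higher. The 1 higher was the Bmp antagonist *chrd*, at 17.6 and 38.7 CPM (24 and 44 UMIs). A share over all genes is not given for this wider set. *dand5* stood at 1208 and 231 CPM in the same class, and axial cells with at least 2 *dand5* UMIs held only 2 and 0 UMIs of *admp*. The part of these cells in the values of the class was not tested. In all axial cells 1 of 11 of the listed Bmp genes was lower (*vox*), beside 1.93% of all genes, and the median was -0.22.

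Early axial cells also held presomitic transcripts. *msgn1*, a presomitic factor, was at 179.8 and 104 CPM in this class, *tbx16* at 117 and 72.9 CPM, *tbx16l* at 46.2 and 25.5 CPM and *myf5* at 14.7 and 14.1 CPM, while *tbx6* and *myod1* had at most 5 UMIs in a library. Their part in the values of this class was not tested.

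For each gene, those with the most similar pattern were sought over the 14 classes of the wild-type library, among 5095 genes with at least 50 CPM in 1 class, by Pearson's r of log2(CPM + 1). The classes share 1 library, so r is a description. *admp* was most like *si:ch211-51a6.2* (r = 0.97), *sst6*, *shha* (a gate marker), *si:ch211-129o18.4* and *tent5bb*. *foxa* and *foxa2* both had *col9a3* first (0.97 and 0.94), a collagen gene of the notochord sheath. *foxa* went on with *foxa1* (0.96), *unc5da*, *col9a1b* and *col2a1a* (a gate marker), and *foxa2* with *zgc:158328*, *aplnr2*, *prss23* and *fxyd1*. *noto* was most like *pcp4a* (0.95), *plekhg7* (0.95), *sst6*, *ciapin1* and *fgf8a*. *foxd5* had lower values, with *foxb1a* (0.85), another forkhead gene of the neural tube, ahead of *pelp1*, *efcab2* and *dnah2*. In the mutant library *si:ch211-51a6.2* and *col9a3* kept rank 1 for *admp* and for *foxa* and *foxa2*, while *pcp4a* was at rank 31 for *noto*. The genes named for *foxd5* moved further: *foxb1a* was at rank 3 there, *pelp1* at 61, *efcab2* at 493 and *dnah2* at 286. Among the 5 genes themselves r was highest for *foxa* and *foxa2* (0.88 in wild type, 0.92 in the mutant) and lowest for *foxa* and *foxd5* (0.11 and 0.18).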

How the data were processed

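Per the labels and the methods, tailbuds were dissociated and 1 10x library per genotype was made; the authors ran Cell Ranger 7.1.0 (GRCz11) with intronic reads. The deposited counts are raw UMIs of each gene in each called barcode, with no normalization, cell annotation or doublet removal. The labels and the methods differ on the wild-type strain and the kit version. Cells kept had at least 200 genes, gene numbers up to the 98th percentile and at most 15% mitochondrial UMIs (read from the methods' filter), and Scrublet (Scanpy 1.11.5) in place of Solo removed 506 (2.80%) of wild-type and 2197 (8.55%) of mutant cells. The libraries held 303216340 and 393322847 UMIs, and the study kept fewer cells than were kept here.

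Classes came from raw UMIs of markers (2 or more UMIs each); 980 and 1283 cells with markers of several lineages and 1309 and 1763 with none were left out. UMIs were summed per class and library and divided by all UMIs of the class. The ratio's interval was tested on simulated data. Genes named are the 5 members, their 5 most similar genes (1 is not reported here) and the fixed lists; others were chosen after their values were seen. The members and lists were chosen with earlier results of these data known. After the gates were first run, epidermis and periderm were merged, and a hypochord gate led by neural crest genes was left out of the axial total. Sequences were not used here.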

Additional observations from a re-analysis of the deposited data

How the results depend on the processing

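Over 60 ratios and 10 alternatives (600 values), 530 stayed within counting error of the value given, 70 moved beyond it and 0 turned the direction of a value whose interval excluded 0. In all axial cells the log2 ratio of *noto* was -1.05 with markers from 3 UMIs, -0.85 on cells thinned to 5000 UMIs, -1.02 less the median gene and -1.15 with the hypochord gate added. For *foxa2* it was -0.29 on thinned cells and -0.38 with that gate, for *foxa* 0.57 with that gate, and for *admp* -0.052 with markers from 1 UMI, -0.27 from 3 UMIs and -0.36 with that gate. The gate holds 41 wild-type and 115 mutant cells, so the mix of cells changes; the cause of the other moves was not tested. *foxd5* in cells with *tbxta* and *sox2* ranged from -1.23 to -1.14 over the 10 alternatives. Outside these, *foxd5* in notochord matrix cells ranged from -1.61 to -0.52, *noto* in floor plate cells from -0.73 to -0.02, and *admp* from 0.10 to 1.398 in floor plate, -2.12 to -1.11 in muscle and -1.87 to -0.37 in anterior presomitic and somite cells. With doublets kept or at most 5% mitochondrial UMIs, none of the 4 ratios in all axial cells, nor *foxd5* in cells with *tbxta* and *sox2*, moved beyond counting error. The gate with hypochord cells was added after the data were seen. No paired analysis was possible because each genotype has 1 library. With 1 library per genotype no library could be left out, and variation between pools is in no interval.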

Other observations

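The hypochord gate, meant for cells under the notochord, took 41 wild-type and 115 mutant cells and was led in part by the neural crest genes *sox9b*, *foxd3* and *ednrab*, so it was given no name. Its 12 wild-type and 54 mutant cells without crest UMIs were 0.0683% (0.0353 to 0.119%) and 0.230% (0.173 to 0.300%) of the cells kept. The study on these libraries had reported an increase in hypochord cells in the mutant, so the direction of these shares is not independent evidence. The cells without crest UMIs held *foxa* at 254 CPM (191 to 331) and 316 CPM (278 to 357) and *foxa2* at 207 CPM (150 to 278) and 127 CPM (104 to 154). *noto* had 0 UMIs in wild type and 4 in the mutant, and *admp* 0 and 1. The gate's cells with crest UMIs had 0 UMIs of *foxa* and *foxa2* in wild type and 14 and 15 in the mutant.

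Axial cells with at least 2 UMIs of *dand5*, 24 in wild type and 10 in the mutant, held almost no *admp* (2 and 0 UMIs). Their *noto* level was 787 CPM (714 to 865) and 421 CPM (337 to 518), *foxa2* at 292 and 253 CPM and *foxd5* at 189 and 66.9 CPM. In the 542 and 501 axial cells without *dand5*, *admp* was at 253 and 221 CPM and *noto* at 1124 and 573 CPM. These cells were split by *dand5* after its values were seen.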
